A study of Mus musculus with 16 samples.

Results

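The genes described here are the 9 core genes of mitochondrial shape and mitochondrial clearance in primary mouse astrocytes, *Mfn1*, *Mfn2*, *Opa1*, *Dnm1l*, *Fis1*, *Pink1*, *Bnip3*, *Bnip3l* and *Fundc1*. They were taken by symbol from the deposited table of log2 CPM (read counts scaled to a common library size), and all 9 were present among its 16707 genes. Astrocytes were isolated from the brains of pups at postnatal day 6 with beads against ACSA2, an astrocyte surface antigen. This age is that of the sample labels and the methods, and a passage of the study's results text gives a younger one. The pups were either WT (C57BL6J) or Nlrx1-/-, which lack a NOD-like receptor that resides in mitochondria. Cultures of 4 WT litters and 4 Nlrx1-/- litters were each divided between vehicle (H2O) and a stimulus of 500 ng/mL lipopolysaccharide (LPS) with 10 ng/mL IFNγ for 24 h, which gave 4 groups of 4 libraries and 16 libraries of poly-A RNA in all. Each litter therefore had its own vehicle culture, whereas litter and genotype cannot be separated, since every litter had a single genotype. The Nlrx1-/- litters carried the deletion in all cells of the culture and not only in astrocytes, and the cells were grown for about 10 days without serum before stimulation.

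Mitochondria form a network that is joined by fusion and cut by fission. MFN1 and MFN2 are GTPases that join outer membranes, OPA1 joins inner membranes and holds cristae in shape, and DNM1L (DRP1) is the cytosolic GTPase that constricts the organelle, with FIS1 as one of the outer membrane proteins linked to fission. Damaged mitochondria are removed by mitophagy, either through the kinase PINK1, which accumulates on depolarised mitochondria and activates the ubiquitin ligase Parkin, or through receptors of the outer membrane that bind the autophagosome directly, namely BNIP3, BNIP3L (NIX) and FUNDC1. *Bnip3* is a textbook target of hypoxia-inducible factor 1.

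Library depth ranged from 27259420 to 43752903 assigned reads (median 35554625), and each of the 9 genes had between 846 and 16553 reads in every library. *Nlrx1* was at 4.22 ± 0.15 log2 CPM in WT vehicle and 2.47 ± 0.53 in Nlrx1-/- vehicle cultures, and at 4.12 ± 0.05 and 1.90 ± 0.54 after stimulation (SD, n = 4 litters each), lower in all Nlrx1-/- libraries. The difference was -1.70 in vehicle (adjusted p = 0.0538, edgeR with Benjamini-Hochberg adjustment) and -2.19 after stimulation (adjusted p = 0.00318). All 9 astrocyte markers of the list used here were in the table, and so were all 7 oligodendrocyte lineage markers and all 6 neuronal markers. The microglial markers *Aif1*, *Cx3cr1*, *Tmem119*, *Csf1r*, *Itgam*, *Trem2* and *Ptprc* were not in the table, and none of them had more than 14 reads in a library. The summed level of the astrocyte markers ran from 3648 to 6148 TPM, a level scaled by transcript length and library total, in WT vehicle, 3115 to 4658 in stimulated WT, 2623 to 4434 in Nlrx1-/- vehicle and 2481 to 3557 in stimulated Nlrx1-/- cultures. The summed oligodendrocyte lineage markers ran from 1957 to 2400, 1461 to 1791, 2125 to 2647 and 1192 to 1723 TPM in the same order of groups. The summed neuronal markers ran from 337.9 to 367.3, 330.2 to 419.8, 319.4 to 365.7 and 374.4 to 430.3 TPM, again in that order, so that the stimulated Nlrx1-/- cultures lay above the Nlrx1-/- vehicle cultures without overlap. Of these 6 markers 2 rose and 1 fell in WT cells after stimulation (edgeR), where 23.7% of all tested genes rose and 20.2% fell. In Nlrx1-/- cells 3 rose and 2 fell, where 25.3% of all genes rose and 24.2% fell. The markers named next were chosen after their values were seen. *Tubb3*, a neuronal tubulin, rose by 2.68 in WT and 2.93 in Nlrx1-/- cells on the log2 scale. *Rbfox3* was at -0.92 in WT and -0.70 in Nlrx1-/- cells. *Syt1* was at -1.37 in Nlrx1-/- cells and at -0.25 in WT, where it did not pass. The summed oligodendrocyte lineage markers lay lower after stimulation without overlap in both genotypes. The part of the neuronal and of the oligodendrocyte lineage markers in the responses of the 9 genes was not tested. In such bulk cultures, fewer cells of a type and less RNA per cell cannot be told apart.

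Compared per transcript length, as TPM, the 9 genes spanned nearly an order of magnitude in resting WT astrocytes. *Fis1* was at 339.7 ± 9.19 TPM and *Pink1* at 317.5 ± 54.1 TPM, and the ranges of these 2 genes overlapped. *Bnip3l* followed at 104.9 ± 8.06 TPM, then *Mfn1* at 89.5 ± 0.656, *Dnm1l* at 69.0 ± 4.56, *Bnip3* at 56.9 ± 4.23, *Mfn2* at 49.9 ± 1.04, *Fundc1* at 45.9 ± 2.50 and *Opa1* at 42.5 ± 1.87 TPM (SD, n = 4). Among these neighbours the ranges of *Fundc1* and *Opa1* overlapped and the others did not. In Nlrx1-/- vehicle cultures *Fis1* (316.8 ± 29.2 TPM) and *Pink1* (251.6 ± 44.6 TPM) again led, and the 4 lowest genes, *Mfn2*, *Opa1*, *Bnip3* and *Fundc1*, each overlapped with the next. After stimulation *Fis1* stood above *Pink1* without overlap in both genotypes, at 384.4 ± 23.8 against 210.3 ± 40.4 TPM in WT and 331.6 ± 24.4 against 139.2 ± 30.1 TPM in Nlrx1-/- astrocytes.

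The first comparison asked how the 9 genes respond to LPS + IFNγ within each genotype, with each stimulated culture set against the vehicle culture of its litter. In WT astrocytes 8 of the 9 genes passed the test (edgeR quasi-likelihood test with Benjamini-Hochberg adjustment over 16066 genes, adjusted p below 0.05), where 43.9% of all tested genes passed. *Bnip3*, *Fis1*, *Mfn1*, *Mfn2* and *Dnm1l* rose (5 of 9, where 23.7% of all genes rose), while *Bnip3l*, *Pink1* and *Fundc1* fell (3 of 9, where 20.2% fell). *Opa1* did not pass. In Nlrx1-/- astrocytes the same 8 genes passed in the same directions, where 49.4% of all tested genes passed, 25.3% up and 24.2% down. In WT, 31.2% of the 16707 genes were higher and 30.0% lower in all 4 litters, and in Nlrx1-/- cells 29.6% and 29.0%, and each of the 8 genes called moved one way in all litters of both genotypes. The median log2 fold change of the 9 genes was 0.22 in WT and 0.20 in Nlrx1-/- cells, beside -0.02 and -0.03 over all genes tested.

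The size of these changes depends on how the libraries are scaled. The deposited log2 CPM and the test use TMM scaling, which centres the bulk of genes. With library sizes alone, an alternative chosen after seeing the data, the median response over all genes was -0.18 in WT and -0.19 in Nlrx1-/- cells, a shift of -0.16 from TMM in both, and every response below is to be read relative to the bulk of genes. Calls over all genes were 3813 up and 3240 down in WT with TMM against 2433 up and 5384 down with library sizes alone, and 4057 up and 3886 down against 2657 up and 5887 down in Nlrx1-/- cells. On library sizes alone the rise of *Bnip3* and the falls of *Pink1*, *Bnip3l* and *Fundc1* passed in both genotypes, and the rises of *Mfn1*, *Mfn2* and *Fis1* passed in WT cells. In Nlrx1-/- cells those of *Mfn1* (0.04), *Mfn2* (0.03), *Fis1* (0.07) and *Dnm1l* (0.10) did not, nor did that of *Dnm1l* in WT cells (0.06).

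**Figure D1:**
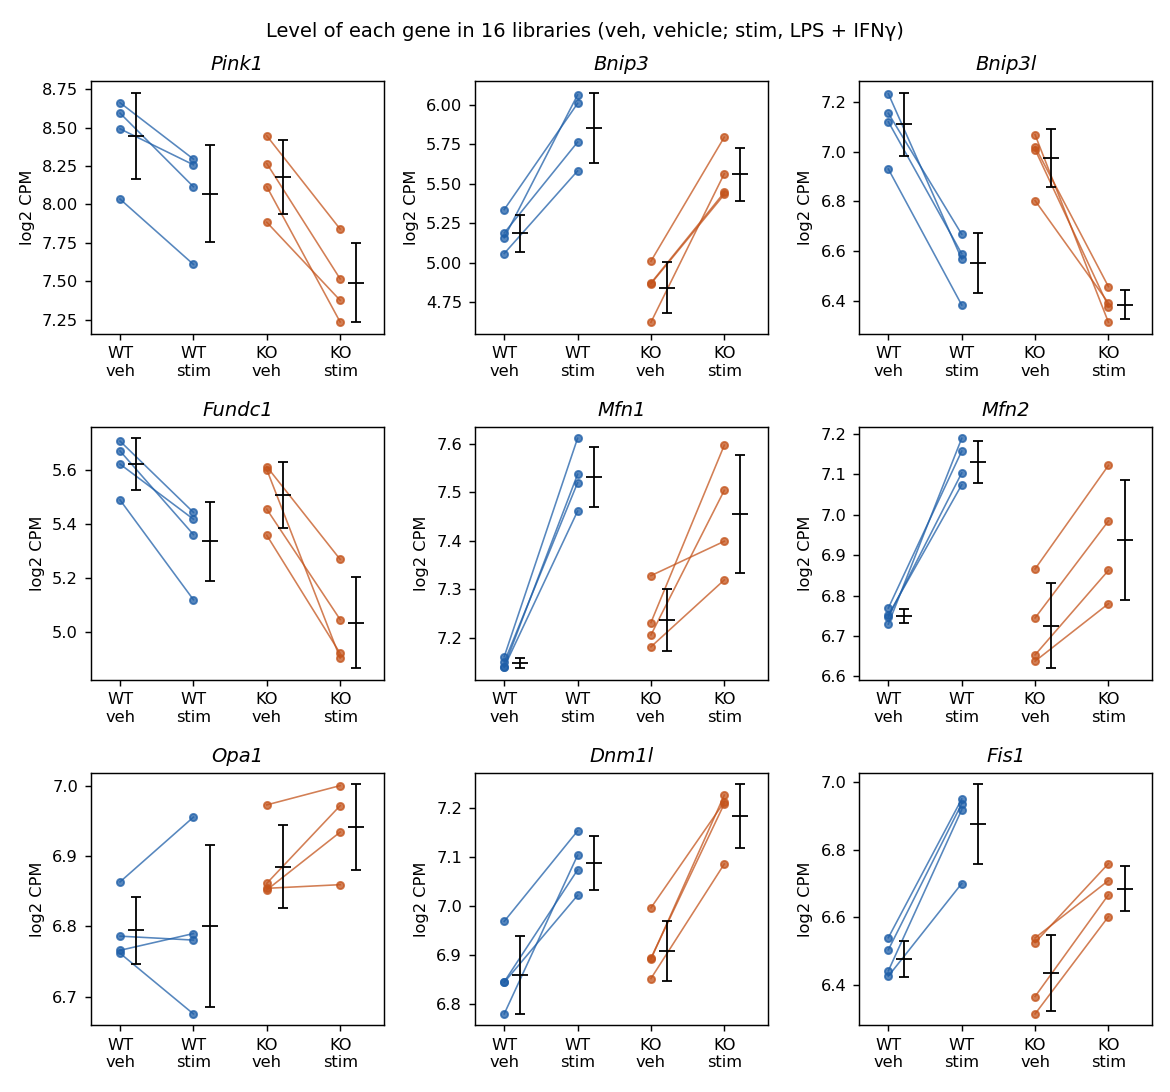
Level of each of the 9 genes in log2 CPM (TMM scaled, as deposited) in WT (blue) and Nlrx1-/- (orange, KO) cultures, with a line joining the vehicle and stimulated culture of a litter and, beside the points, the mean and SD of 4 litters; vertical axes differ between panels and do not start at 0. *Pink1*, *Bnip3l* and *Fundc1* fell and *Bnip3*, *Mfn1*, *Mfn2*, *Dnm1l* and *Fis1* rose in all 8 litters, and on library sizes alone the mean *Opa1* change was negative in both genotypes.

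Both mitofusins rose. *Mfn1* (chr3:32583599-32645888, plus strand, GRCm39) was at 7.14, 7.15, 7.14 and 7.16 log2 CPM in the vehicle cultures of WT litters 1 to 4 and at 7.46, 7.52, 7.54 and 7.61 after stimulation. The vehicle libraries were almost identical and all 4 stimulated libraries lay above them, with a log2 fold change of 0.37 (SE 0.06, adjusted p = 0.000351, edgeR), an increase of 29.6%. In Nlrx1-/- litters *Mfn1* went from 7.23, 7.33, 7.21 and 7.18 to 7.60, 7.40, 7.50 and 7.32 log2 CPM. Here the groups overlapped, because the vehicle culture of litter 2 lay above the stimulated culture of litter 4, although each litter rose, and the log2 fold change was 0.20 (SE 0.06, adjusted p = 0.0116, edgeR). This call was lost without Nlrx1-/- litter 1 (adjusted p = 0.0668) or litter 3 (adjusted p = 0.0518).

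*Mfn2* (chr4:147955508-147989585, minus strand) followed the same course. It was at 6.75, 6.75, 6.77 and 6.73 log2 CPM in WT vehicle and 7.07, 7.10, 7.16 and 7.19 in stimulated WT cultures. The log2 fold change was 0.37 (SE 0.05, adjusted p = 0.000125, edgeR), an increase of 28.9%, with no overlap between treatments. In Nlrx1-/- cultures it was at 6.74, 6.65, 6.87 and 6.64 log2 CPM in vehicle and at 6.98, 6.86, 7.12 and 6.78 after stimulation. These ranges overlapped, while each litter rose, and the log2 fold change was 0.20 (SE 0.05, adjusted p = 0.00545, edgeR).

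*Opa1* (chr16:29398108-29473858, plus strand), the inner membrane fusion gene, did not pass in either genotype. WT litters stood at 6.86, 6.77, 6.79 and 6.76 log2 CPM in vehicle and at 6.96, 6.79, 6.78 and 6.68 after stimulation, so that 2 litters were higher and 2 lower. Nlrx1-/- litters stood at 6.85, 6.97, 6.86 and 6.85 log2 CPM in vehicle and at 6.93, 7.001, 6.97 and 6.86 after stimulation, each litter slightly higher but with overlapping ranges. The log2 fold change was -0.0049 with a 95% interval from -0.11 to 0.10 in WT (adjusted p = 0.944, edgeR) and 0.04 with an interval from -0.06 to 0.14 in Nlrx1-/- cells (adjusted p = 0.486, edgeR). On library sizes alone *Opa1* was lower after stimulation, by -0.17 in WT (adjusted p = 0.0167, edgeR) and by -0.12 in Nlrx1-/- cells (adjusted p = 0.0576, edgeR). The mitofusins had positive log2 fold changes on both scales, though on library sizes alone they passed in WT cells only.

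The fission genes also rose. *Dnm1l* (chr16:16128677-16176904, minus strand), the mechanoenzyme of fission, was at 6.97, 6.78, 6.84 and 6.84 log2 CPM in WT vehicle and 7.15, 7.10, 7.07 and 7.02 after stimulation. Each stimulated WT library lay above each vehicle library, with a log2 fold change of 0.22 (SE 0.04, adjusted p = 0.00257, edgeR). In Nlrx1-/- cultures it rose from 6.89, 6.996, 6.85 and 6.89 to 7.23, 7.21, 7.09 and 7.21 log2 CPM, a log2 fold change of 0.26 (SE 0.04, adjusted p = 0.000703, edgeR), again without overlap.

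*Fis1* (chr5:136982101-136995089, plus strand), the outer membrane adaptor, was at 6.43, 6.50, 6.44 and 6.54 log2 CPM in WT vehicle and at 6.70, 6.94, 6.92 and 6.95 after stimulation. Litter 1 was the lowest WT library in each treatment, yet the treatments did not overlap, and the log2 fold change was 0.39 (SE 0.05, adjusted p = 0.000123, edgeR), an increase of 30.8%. In Nlrx1-/- cultures *Fis1* went from 6.53, 6.37, 6.54 and 6.31 to 6.76, 6.67, 6.71 and 6.60 log2 CPM, a log2 fold change of 0.23 (SE 0.05, adjusted p = 0.00281, edgeR).

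*Pink1* (chr4:138039346-138053618, minus strand), the kinase that starts Parkin-dependent mitophagy, fell in every litter. WT litters 1 to 4 were at 8.03, 8.59, 8.49 and 8.66 log2 CPM in vehicle and at 7.61, 8.11, 8.26 and 8.29 after stimulation. Litter 1 was the lowest in both treatments, so the groups overlapped in level while the litter-wise change did not vary in sign, and the log2 fold change was -0.39 (SE 0.07, adjusted p = 0.000901, edgeR), a change of -23.6%. Without the litter terms this call was lost (log2 fold change -0.38, adjusted p = 0.105, edgeR). In Nlrx1-/- litters *Pink1* went from 8.27, 7.88, 8.45 and 8.12 to 7.52, 7.38, 7.84 and 7.24 log2 CPM. All 4 stimulated libraries lay below all vehicle libraries, and the log2 fold change was -0.69 (SE 0.07, adjusted p = 1.45e-05, edgeR), a change of -38.2%.

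The receptor genes moved in opposite directions. *Bnip3* (chr7:138490690-138511253, minus strand) had the highest log2 fold change of the 9 genes in both genotypes. It was at 5.06, 5.16, 5.19 and 5.34 log2 CPM in WT vehicle and at 5.58, 6.06, 5.76 and 6.01 after stimulation, and at 4.87, 4.62, 5.01 and 4.87 against 5.45, 5.56, 5.80 and 5.43 in Nlrx1-/- cultures. Stimulated and vehicle libraries did not overlap in either genotype, and the log2 fold changes were 0.66 (SE 0.08, adjusted p = 0.000117, edgeR) in WT and 0.70 (SE 0.08, adjusted p = 6.44e-05, edgeR) in Nlrx1-/- cells, increases of 58.0% and 62.8%.

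*Bnip3l* (chr14:67222678-67246356, minus strand), the close relative of *Bnip3* that clears mitochondria from maturing red cells, fell. It was at 6.93, 7.24, 7.12 and 7.16 log2 CPM in WT vehicle and at 6.38, 6.57, 6.59 and 6.67 after stimulation, and at 7.01, 6.80, 7.02 and 7.07 against 6.38, 6.39, 6.46 and 6.31 in Nlrx1-/- cultures. The treatments did not overlap in either genotype, and the log2 fold changes were -0.57 (SE 0.06, adjusted p = 3.95e-05, edgeR) and -0.61 (SE 0.06, adjusted p = 2.1e-05, edgeR), changes of -32.7% and -34.5%.

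The opposite movement of the relatives exchanged their order. Measured as a ratio of TPM, *Bnip3l* over *Bnip3* was 1.85 ± 0.146 in WT vehicle and 0.788 ± 0.0771 after stimulation, and 2.13 ± 0.124 and 0.859 ± 0.0669 in Nlrx1-/- cultures (SD, n = 4). In all 8 vehicle libraries the ratio was above 1, with 1.71 as the lowest value, and in all 8 stimulated libraries it was below 1, with 0.923 as the highest. A ratio within a library does not depend on the scaling between libraries.

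*Fundc1* (chrX:17386204-17438572, minus strand), whose protein is a receptor for mitophagy under low oxygen, fell as well. WT litters were at 5.49, 5.71, 5.62 and 5.67 log2 CPM in vehicle and at 5.12, 5.44, 5.42 and 5.36 after stimulation, and Nlrx1-/- litters were at 5.45, 5.36, 5.61 and 5.60 against 5.05, 4.92, 5.27 and 4.90. Stimulated libraries lay below vehicle libraries without overlap in both genotypes, and the log2 fold changes were -0.30 (SE 0.07, adjusted p = 0.00521, edgeR) and -0.49 (SE 0.07, adjusted p = 0.000203, edgeR).

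**Figure D2:**
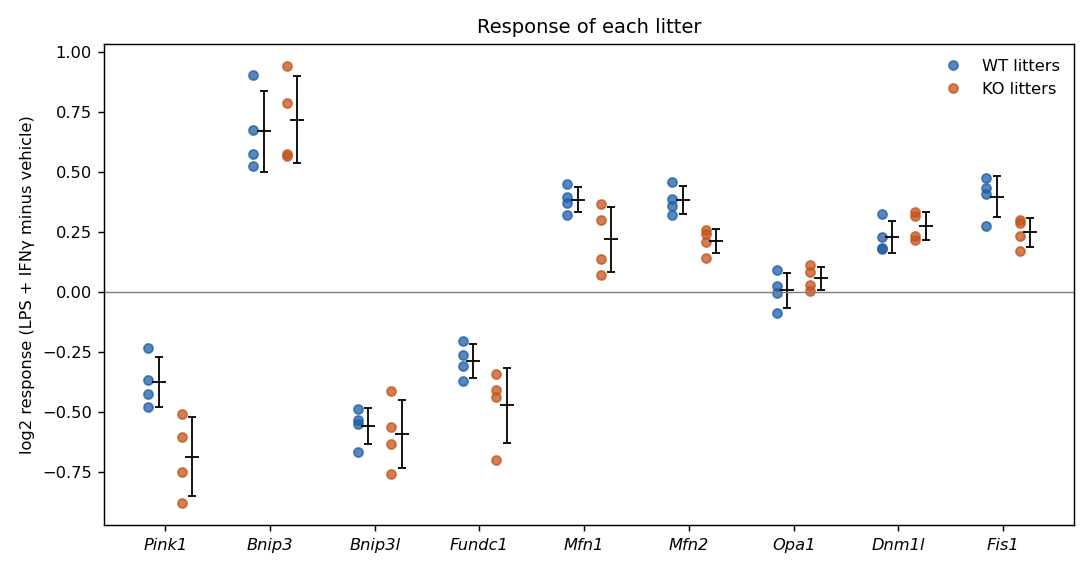
Response of each litter (log2 CPM after LPS + IFNγ minus log2 CPM in vehicle, TMM scaled) for the 9 genes in WT (blue) and Nlrx1-/- (orange) litters, with the mean and SD of 4 litters beside the points. All litters of both genotypes lie below 0 for *Pink1*, *Bnip3l* and *Fundc1*, all lie above 0 for *Bnip3*, *Mfn1*, *Mfn2*, *Dnm1l* and *Fis1*, and *Opa1* lies about 0 on this scale but has a negative mean on library sizes alone.

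Because *Bnip3*, *Pink1* and *Fundc1* responded in different directions, the sequence around an annotated start of each is shown, from RefSeq on GRCm38.p6. Each window runs from 250 bases before to 50 bases after that start and is written 5′ to 3′ on the gene's strand. Whether that start belongs to the most abundant transcript of the gene was not tested. Capitals mark ACGTG and GCGTG on either strand (as CACGT and CACGC where the match is on the other strand), the letters at the core of hypoxia response elements. The *Bnip3* window is chr7:138909457-138909756, the *Pink1* window chr4:138326247-138326546 and the *Fundc1* window chrX:17571958-17572257, all on the minus strand.

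Bnip3: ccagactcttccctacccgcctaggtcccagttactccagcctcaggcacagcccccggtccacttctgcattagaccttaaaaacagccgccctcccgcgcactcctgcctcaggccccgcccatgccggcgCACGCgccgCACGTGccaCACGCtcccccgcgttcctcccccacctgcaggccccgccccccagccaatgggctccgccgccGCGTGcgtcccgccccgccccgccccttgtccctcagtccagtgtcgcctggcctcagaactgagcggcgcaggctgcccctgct

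Pink1: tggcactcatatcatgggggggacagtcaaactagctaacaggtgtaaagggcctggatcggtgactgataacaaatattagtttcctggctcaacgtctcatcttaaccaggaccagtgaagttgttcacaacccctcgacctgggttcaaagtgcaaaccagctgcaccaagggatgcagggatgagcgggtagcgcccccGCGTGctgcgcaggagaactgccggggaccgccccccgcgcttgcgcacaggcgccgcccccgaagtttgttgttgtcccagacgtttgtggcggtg

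Fundc1: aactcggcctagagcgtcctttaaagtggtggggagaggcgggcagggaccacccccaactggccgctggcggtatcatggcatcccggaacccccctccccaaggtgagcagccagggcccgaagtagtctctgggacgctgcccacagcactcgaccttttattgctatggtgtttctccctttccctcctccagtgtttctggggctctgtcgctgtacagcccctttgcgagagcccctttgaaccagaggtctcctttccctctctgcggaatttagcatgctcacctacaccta

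The *Bnip3* window held ACGTG 2 times, as both strands of a single CACGTG whose first base lies at -108 from the start, and GCGTG 3 times, at -117, -99 and -35. The *Pink1* window held GCGTG once, at -47, and the *Fundc1* window held neither. Ahead of its annotated start, however, the *Fundc1* window holds the first codons of FUNDC1 and a splice donor. It thus lies within the gene and does not describe the sequence before the first coding exon. Of the 32851 promoter windows of this length in the table, 19.6% held ACGTG, 32.4% held GCGTG and 7.15% held CACGTG. Windows were found for 8 of the 9 genes, and only those of *Bnip3* and *Mfn2* held ACGTG. Windows of *Mfn2*, *Fis1* and *Dnm1l* also held GCGTG. The letters GTAAACA (bound by FOXO factors) and TTCNNNGAA (bound by STAT factors) were searched on both strands and were in none of the windows of these 8 genes, while 3.65% and 8.30% of all windows held them. A match is a description of the letters only, and a window without a match says nothing of the factor.

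The second comparison asked whether the response differed between genotypes, as the interaction of genotype and stimulus. For 6 of the 9 genes the Nlrx1-/- minus WT difference in response was negative, and none of the 9 passed the test (edgeR, Benjamini-Hochberg adjustment), where 0.0% of the 16066 genes passed. At an unadjusted p below 0.05 edgeR gave 2 of the 9, *Pink1* and *Mfn2*, where 15.4% of all genes were below it, and DESeq2, limma on the deposited values and limma-voom called 0 of the 9 after adjustment. DESeq2 called 0.691% of all genes with a higher and 1.15% with a lower response in Nlrx1-/- cells, and both limma fits called 0. Litters 1 to 4 of WT had *Pink1* responses of -0.42, -0.48, -0.23 and -0.37, and those of Nlrx1-/- had -0.75, -0.51, -0.61 and -0.88. Every Nlrx1-/- litter lay below every WT litter, and the difference of responses was -0.31 (SE 0.10, adjusted p = 0.223, edgeR).

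The *Mfn2* response was 0.32, 0.36, 0.39 and 0.46 in WT litters and 0.24, 0.21, 0.26 and 0.14 in Nlrx1-/- litters. The litters of the genotypes did not overlap here either, and the difference was -0.17 (SE 0.07, adjusted p = 0.280, edgeR). Such an absence of overlap was seen for 2 of the 9 genes and for 8.31% of all 16707 genes, 3.06% with Nlrx1-/- higher and 5.25% with Nlrx1-/- lower. For *Mfn1*, *Fis1* and *Fundc1* the differences were -0.17 (95% interval from -0.35 to 0.0052), -0.15 (from -0.31 to 0.0016) and -0.19 (from -0.41 to 0.03). For *Bnip3* (0.04, from -0.22 to 0.31), *Bnip3l* (-0.04, from -0.23 to 0.16), *Opa1* (0.05, from -0.10 to 0.19) and *Dnm1l* (0.04, from -0.10 to 0.18) the intervals held 0 well within them. Across leave-one-litter-out fits the *Pink1* difference stayed between -0.37 and -0.24 and that of *Mfn2* between -0.20 and -0.14. That of *Fundc1* ran from -0.24 to -0.11, and there was no call for these genes in any of the fits.

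The third comparison set Nlrx1-/- against WT astrocytes within a treatment. The fit took its spread from all 16 libraries without litter terms, so the vehicle and stimulated libraries of a litter entered as independent and its degrees of freedom exceed what 8 litters give. In vehicle none of the 9 genes passed, where 0.0% of all genes passed (edgeR), and DESeq2, limma on the deposited values and limma-voom also called 0 of the 9. DESeq2 called 2.83% of all genes higher and 1.74% lower in Nlrx1-/- vehicle cultures, while limma on the deposited values and limma-voom each called 0 genes higher and 1 lower. At an unadjusted p below 0.05 edgeR gave 1 of the 9, where 19.6% of all genes were below it. That gene was *Bnip3*, at 4.62 to 5.01 log2 CPM in Nlrx1-/- and 5.06 to 5.34 in WT vehicle cultures. The ranges did not overlap, and the log2 fold change was -0.35 (SE 0.12, adjusted p = 0.146, edgeR), which without Nlrx1-/- litter 3 became -0.40 (adjusted p = 0.0467), a fit in which 4.42% of all genes were called lower. *Mfn1* was the only other gene of the 9 without overlap, at 7.18 to 7.33 log2 CPM in Nlrx1-/- and 7.14 to 7.16 in WT cultures, with a log2 fold change of 0.08 (SE 0.06, adjusted p = 0.503, edgeR). Among all 16707 genes 9.45% did not overlap between genotypes in vehicle, 6.02% higher and 3.43% lower in Nlrx1-/- cultures. The other 7 genes had log2 fold changes from -0.29 for *Pink1* to 0.08 for *Opa1*.

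After LPS + IFNγ none of the 9 genes passed in edgeR, where 5.03% of all genes passed (2.65% higher and 2.38% lower in Nlrx1-/- cultures), and 6 of the 9 were below an unadjusted p of 0.05, where 28.4% of all genes were. All 6 were lower in Nlrx1-/- cultures. *Pink1* was at 7.24 to 7.84 log2 CPM in Nlrx1-/- and 7.61 to 8.29 in WT cultures, a log2 fold change of -0.59 (SE 0.18, adjusted p = 0.0552, edgeR). The ranges overlapped, because WT litter 1 lay at 7.61 and Nlrx1-/- litter 3 at 7.84. *Fundc1* differed by -0.31 (SE 0.10, adjusted p = 0.0619, edgeR), *Fis1* by -0.21 (SE 0.07, adjusted p = 0.0779), *Bnip3* by -0.31 (SE 0.12, adjusted p = 0.0970), *Mfn2* by -0.20 (SE 0.07, adjusted p = 0.0973) and *Bnip3l* by -0.19 (SE 0.08, adjusted p = 0.144). None of the 9 genes was free of overlap between genotypes, where 13.3% of all genes were, 7.09% higher and 6.23% lower in Nlrx1-/- cultures. *Mfn1* (-0.09, 95% interval from -0.22 to 0.05), *Dnm1l* (0.08, from -0.04 to 0.20) and *Opa1* (0.13, from -0.0079 to 0.26) had the smallest differences.

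These genotype differences turned on the tool and on single litters, as did calls over all genes, of which 2.38% were lower in Nlrx1-/- cultures in edgeR with all litters. With stimulated libraries only, 0.0% of all genes were called and *Pink1* was at -0.59 (adjusted p = 0.0865, edgeR). In stimulated cultures DESeq2 called 3 of the 9 genes lower in Nlrx1-/- astrocytes (*Pink1*, *Fundc1* and *Fis1*), where it called 7.53% of all genes lower. limma on the deposited values called 1 (*Pink1*), where it called 4.41% lower, and limma-voom called 0, where it called 1.16% lower. Without WT litter 1, where 4.70% of all genes were called lower, edgeR called *Pink1* (-0.73, adjusted p = 0.0319), *Fundc1* (-0.38, adjusted p = 0.0354), *Fis1* (-0.26, adjusted p = 0.0380) and *Bnip3* (-0.40, adjusted p = 0.0466). Without Nlrx1-/- litter 3, where 11.3% of all genes were called lower, it called *Pink1* (-0.73, adjusted p = 0.0107), *Fundc1* (-0.40, adjusted p = 0.00972), *Mfn2* (-0.27, adjusted p = 0.0108) and *Bnip3* (-0.41, adjusted p = 0.0237). The direction of *Pink1* was negative in all 17 alternative fits, from -0.73 to -0.50, with adjusted p from 0.0107 to 0.181 and a call in 5 of them.

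**Figure D3:**
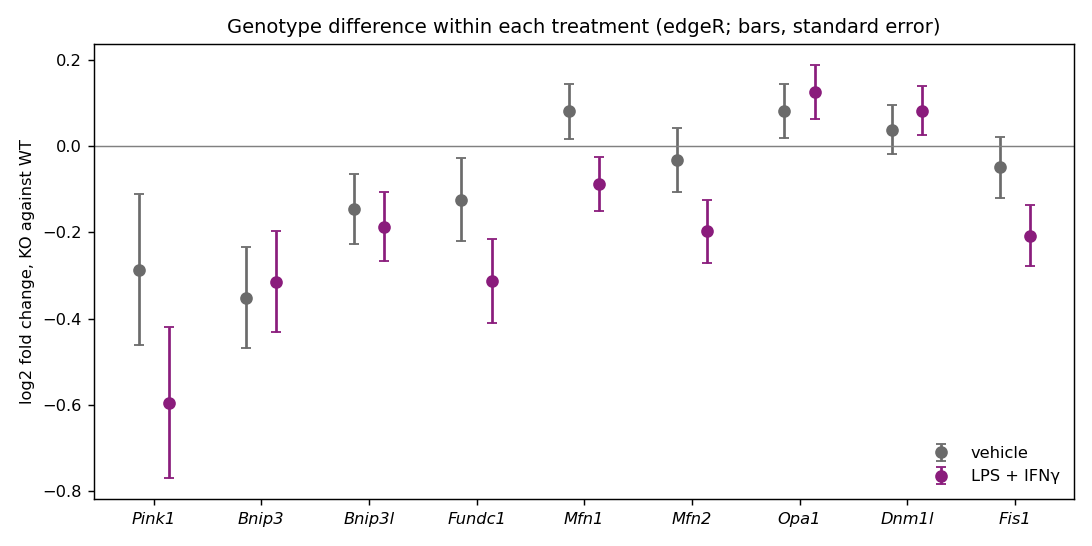
Log2 fold change of Nlrx1-/- (KO) against WT astrocytes for the 9 genes in vehicle (grey) and after LPS + IFNγ (purple), with the standard error from edgeR. *Pink1* reaches -0.59 after stimulation, *Bnip3* is at -0.35 and -0.31, and no difference passed an adjusted p of 0.05.

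The litters that moved these calls were the same for several of the genes. WT litter 1 was the lowest WT litter in both treatments for *Pink1*, *Bnip3*, *Bnip3l*, *Fundc1*, *Fis1* and *Mfn1* and the highest for *Dnm1l* and *Opa1*. Nlrx1-/- litter 3 was the highest Nlrx1-/- litter in both treatments for *Pink1*, *Bnip3*, *Fundc1* and *Mfn2* and the lowest for *Dnm1l*. The fission gene *Dnm1l* was thus at the opposite end from *Pink1*, *Bnip3* and *Fundc1* in both litters, while *Bnip3l* was highest in Nlrx1-/- litter 3 only after stimulation. The summed astrocyte markers were at the same end as *Pink1*, *Bnip3* and *Fundc1*, with WT litter 1 at 3648 TPM in vehicle and 3115 TPM after stimulation, the lowest of the WT litters, and Nlrx1-/- litter 3 at 4434 and 3557 TPM, the highest of the Nlrx1-/- litters. The median summed level was 4672 TPM in WT and 3304 TPM in Nlrx1-/- vehicle cultures and 3836 against 2701 TPM after stimulation, and after stimulation 3 of the 9 markers (*S100b*, *Aldoc* and *Gja1*) were called lower in Nlrx1-/- cultures, with 0 called higher. The part of the astrocyte markers, or of culture composition, in the lower *Pink1*, *Bnip3* and *Fundc1* of Nlrx1-/- cultures was not tested.

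**Figure D4:**
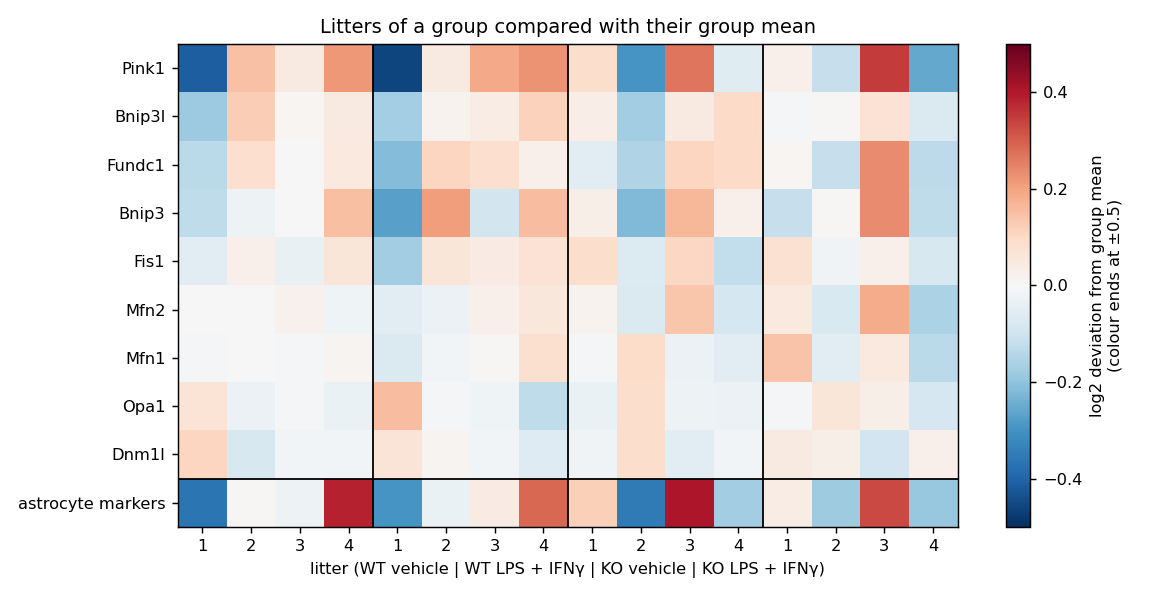
Deviation of each library from the mean of its group, on the log2 scale, for the 9 genes (log2 CPM) and for the summed TPM of 9 astrocyte markers (bottom row), with litters 1 to 4 of each group in columns. WT litter 1 is low and Nlrx1-/- litter 3 high for *Pink1*, *Fundc1*, *Bnip3* and the markers in both treatments, and *Dnm1l* has the opposite colours in these litters.

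The genes most like each member over the 16 libraries are given as a description, by Pearson r of log2 CPM among genes with a mean of at least 3 log2 CPM. The libraries share treatment, genotype and litter, so that high values of r come easily. *Pink1* was most like *Apoe* (r = 0.984), which encodes the main apolipoprotein of astrocytes, then *Itm2c* (0.982) and *Plxdc2* (0.980). *Bnip3l* was most like *Ephb1* (0.985), *Atp2b4* (0.978) and *Frem2* (0.976), and *Fundc1* like *Itih5* (0.974), *Pcyox1* (0.971) and *Pmm1* (0.970). *Bnip3* was most like *Mgst1* (0.967), *Cpt1c* (0.966) and *Bmpr1a* (0.966). Among the dynamics genes, *Mfn1* was most like *Klhl23* (0.979), *Tpi1* (0.966) and *Ddost* (0.963), *Mfn2* like *Gpx1* (0.966), *Trappc9* (0.966) and *Hibadh* (0.964), *Dnm1l* like *Acsl4* (0.972), *Cacybp* (0.971) and *Klhdc4* (0.970), and *Fis1* like *Lynx1* (0.973), *Slc39a1* (0.971) and *Aifm2* (0.965). *Opa1* had the lowest leading value, with *Prokr1* (0.920), *Trim27* (0.912) and *Gabpb1* (0.910).

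The transcript estimates behind the gene sums differed in firmness. *Pink1* and *Bnip3* each had a single transcript in the files, and *Bnip3l*, *Fundc1* and *Mfn2* each had a single one above 5% of the gene's reads. For *Mfn1*, 55.8% of all reads were assigned to XR_001783736.3, a predicted non-coding transcript, and 44.2% to the coding NM_024200.4. The non-coding share was 56.2% ± 2.36 in WT vehicle and 56.2% ± 5.12 after stimulation (SD, n = 4), with 1 litter higher and 3 lower. Taken alone, NM_024200.4 rose by 0.38 ± 0.19 in WT and 0.21 ± 0.16 in Nlrx1-/- litters on the log2 scale, with all 8 litters above 0.

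Of the 4 genes with several abundant transcripts, *Fis1* shifted in the same direction in each litter. Its main transcript NM_025562.3 went from 89.9% ± 1.12 to 91.9% ± 0.423 of the gene's reads in WT and from 89.2% ± 1.16 to 92.3% ± 0.507 in Nlrx1-/- cultures. The exact paired permutation test gave p = 0.125 in each genotype, two-sided, the smallest value that 4 litters allow (adjusted over the 4 genes, 0.167 and 0.5). The main *Opa1* transcript NM_133752.3 went from 63.1% ± 5.43 to 55.7% ± 3.38 in WT, lower in all 4 litters (exact p = 0.125), and from 57.0% ± 4.68 to 54.9% ± 5.94 in Nlrx1-/- cultures, where 3 litters were higher and 1 lower. For *Dnm1l*, with 25 transcripts in the files, the share of the leading transcript ran from 0% to 32.3% among Nlrx1-/- vehicle libraries, while the summed level of the gene in these libraries ran from 66.0 to 71.0 TPM.

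The 9 genes were then set among 8 lists of related genes, 86 of whose 89 genes were tested. Each count is to be read beside all genes tested, of which 23.7% rose and 20.2% fell in WT cells and 25.3% rose and 24.2% fell in Nlrx1-/- cells. With library sizes alone, without TMM scaling, 15.1% of all genes rose and 33.5% fell in WT cells and 16.5% rose and 36.6% fell in Nlrx1-/- cells, and the counts for that scaling are to be read beside these shares. Among 12 further genes of fusion and OPA1 processing, 7 rose and 1 fell in WT cells, with a median log2 fold change of 0.22. *Miga2*, a promoter of fusion on the outer membrane, rose by 0.61 (SE 0.08, adjusted p = 9.99e-05, edgeR), and *Phb2*, the inner membrane prohibitin that guards OPA1 from cleavage, by 0.40 (SE 0.06, adjusted p = 0.000249). Of the 7 genes of the MICOS complex, which holds crista junctions, 4 rose and 0 fell, among them *Chchd3* (0.44 in WT and 0.39 in Nlrx1-/- cells) and *Micos13* (0.41 in WT and 0.04 in Nlrx1-/- cells, the latter with adjusted p = 0.731, edgeR). The difference between the *Micos13* responses was -0.37 and did not pass (adjusted p = 0.223, edgeR). With library sizes alone the counts became 3 up and 1 down for fusion and OPA1 processing and 3 up and 1 down for MICOS.

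Of the 11 fission regulators 3 rose and 2 fell in WT cells, close to the shares of all genes. *Gdap1*, a fission factor of the outer membrane mutated in Charcot-Marie-Tooth disease, fell by 0.74 on the log2 scale in WT (SE 0.11, adjusted p = 0.000334, edgeR) and by 0.75 in Nlrx1-/- cells, and *Mtfp1*, an inner membrane fission protein, rose by 0.61 in WT (SE 0.19, adjusted p = 0.0217) and was at 0.43 in Nlrx1-/- cells (adjusted p = 0.0692), with an adjusted p of 0.782 for the difference. With library sizes alone the count was 1 up and 4 down. The 4 genes of mitochondrial transport along microtubules had log2 fold changes from -0.02 to 0.07 in WT cells, none with an unadjusted p below 0.05 in edgeR. In Nlrx1-/- cells *Rhot1*, chosen after its values were seen, rose by 0.28 (SE 0.06, adjusted p = 0.00254, edgeR), and the others did not pass. The difference between its responses did not pass (adjusted p = 0.238, edgeR). With library sizes alone 0 genes of this list were called in Nlrx1-/- cells.

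In contrast to *Pink1*, other genes of the PINK1-Parkin pathway rose more often than they fell, with 9 up and 1 down of 17 in WT and 11 up and 1 down in Nlrx1-/- cells. *Marchf5*, a ubiquitin ligase of the outer membrane, rose by 0.99 in WT (SE 0.13, adjusted p = 0.000129, edgeR), and *Fbxo7*, which acts with Parkin, rose by 0.72 (SE 0.08, adjusted p = 2.75e-05). The counts with library sizes alone were 5 up and 1 down, and 6 up and 2 down. Of 12 other genes of receptor-mediated mitophagy, 5 rose and 1 fell in WT cells. With library sizes alone 2 rose and 2 fell in WT, and 2 rose and 5 fell in Nlrx1-/- cells. *Bcl2l1*, the anti-apoptotic BCL-XL, which also holds FUNDC1-dependent mitophagy in check, rose by 0.65 in WT and 1.14 in Nlrx1-/- cells, while *Ulk1*, the kinase that starts autophagy and phosphorylates FUNDC1, fell by 0.47 and 0.42 on the log2 scale.

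*Bnip3* was set beside other targets of hypoxia-inducible factor. Of the 11 tested, 6 rose and 1 fell in WT cells and 7 rose and 1 fell in Nlrx1-/- cells, and with library sizes alone 5 rose and 1 fell in WT and 5 rose and 2 fell in Nlrx1-/- cells. *Egln3*, a prolyl hydroxylase that marks hypoxia-inducible factor for degradation, rose by 2.37 in WT (SE 0.12, adjusted p = 1.4e-07, edgeR) and 2.60 in Nlrx1-/- cells. *Ndrg1*, a stress-responsive gene also needed in myelinating glia, fell by 1.20 on the log2 scale in WT (SE 0.12, adjusted p = 1.88e-05, edgeR) and by 0.49 in Nlrx1-/- cells. Of the 7 oligodendrocyte lineage markers, 5 fell in WT and 6 in Nlrx1-/- cells and none rose, and their part in the fall of *Ndrg1* was not tested. Of the 12 genes of mitochondrial biogenesis, 3 rose and 3 fell in WT cells, close to the shares of all genes, with *Ppargc1a*, the main coactivator of biogenesis, at 0.51 (SE 0.09, adjusted p = 0.00112, edgeR) and *Polg2*, a subunit of the mitochondrial DNA polymerase, at -0.70 (SE 0.21, adjusted p = 0.0181). In Nlrx1-/- cells *Ppargc1a* rose by 0.34, and *Polg2* was at -0.44 (adjusted p = 0.101), with an adjusted p of 0.704 for its difference from WT. The 3 genes of this list that rose in WT also rose in Nlrx1-/- cells, and the 3 that fell did not pass there (edgeR). With library sizes alone 2 rose and 6 fell in WT, and 2 rose and 5 fell in Nlrx1-/- cells.

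Between genotypes, 4 of these 86 genes were called after stimulation, where 5.03% of all genes were, and all 4 were higher in Nlrx1-/- astrocytes. They were chosen after their values were seen, and with stimulated libraries only none of the 4 kept its call (adjusted p from 0.0746 to 0.0960, edgeR), as none of all genes did. *Mtfr1*, a fission regulator, differed by 0.55 (SE 0.15, adjusted p = 0.0474, edgeR), *Atad3a*, an inner membrane ATPase that assists PINK1 turnover, by 0.56 (SE 0.15, adjusted p = 0.0460), and the transport genes *Rhot1* and *Trak2* by 0.30 (SE 0.08, adjusted p = 0.0497) and 0.43 (SE 0.12, adjusted p = 0.0474). In vehicle edgeR called 0 of the 86, where 0.0% of all genes were called, with 27 below an unadjusted p of 0.05, where 19.6% of all genes were.

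**Figure D5:**
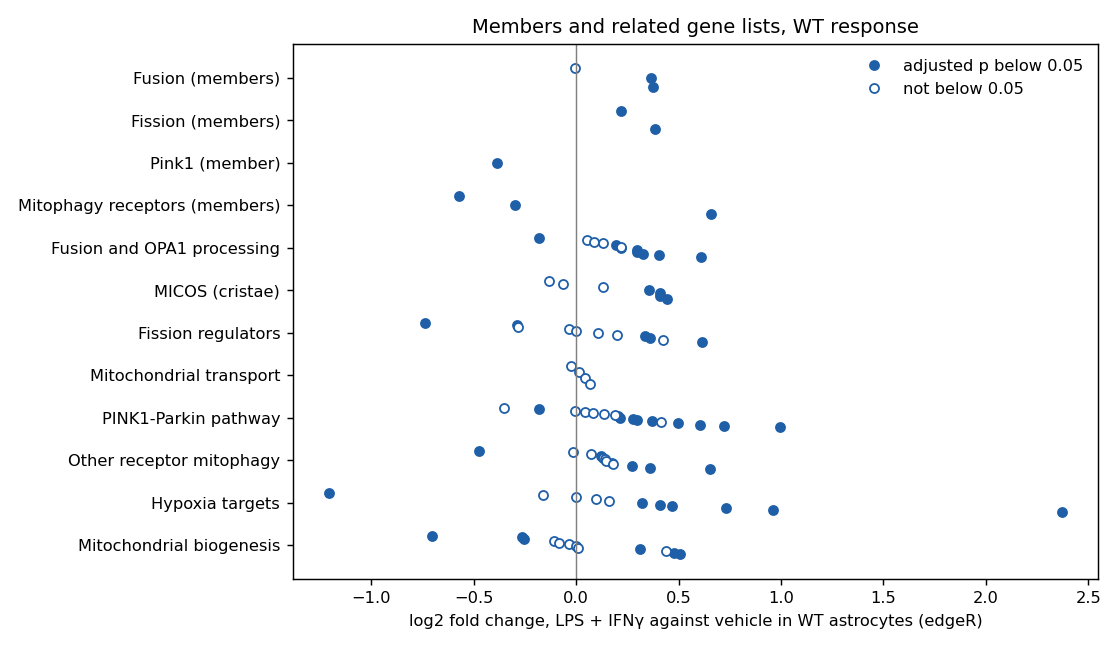
Log2 fold change in WT astrocytes (LPS + IFNγ against vehicle, edgeR with TMM scaling) of the 9 genes by role and of 8 lists of related genes, with filled points for an adjusted p below 0.05. The mitofusins and fission genes lie right of 0 and *Pink1*, *Bnip3l* and *Fundc1* left of it; with library sizes alone the points move left by about 0.16, and the medians of mitochondrial transport (-0.13), of the fission regulators (-0.06) and of the other receptor genes (-0.02) become negative, while that of biogenesis goes from -0.02 to -0.18.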

How the data were processed

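The 16 libraries were quantified by the authors with Salmon 1.7.0 on the GRCm39 transcriptome from unstranded poly-A reads, per the methods and the submitters' processing notes. The deposited per-library files give expected counts and TPM per transcript, and the deposited table gives TMM-scaled log2 CPM per gene. A second table of CPM was not used here. Transcripts were paired with symbols through RefSeq (96.7% to 97.3% of reads per library) and summed per gene.

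Rounded expected counts were tested with edgeR 4.0.16 (R 4.3.3), using TMM, length offsets and a minimum count of 10 in filterByExpr. Responses and their difference were fitted with litter within genotype, genotype differences over 4 groups without litter terms. Vehicle and stimulated cultures of a litter share animals by design, and after centring by group each vehicle library correlated best with the stimulated library of its own litter (Pearson r from 0.0733 to 0.355 across genes). Fits were tested on simulated data. Alternatives used DESeq2 1.42.0, limma 3.58.1, RLE scaling, no length offsets, no count filter, other litter terms, 1 treatment at a time, log2(TPM + 1) and each litter left out, and, added after seeing the data, library sizes alone. Tables and plots used Python 3.11.15. The 95% intervals use the t distribution with the degrees of freedom of the edgeR test. Gene coordinates are from GENCODE M39.

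The members, gene lists and marker lists were chosen with earlier results of these data known. All 9 members are named. From each list the genes named are those with the highest 2 absolute changes among genes called in the WT response, other genes being said to be chosen after their values were seen, and for each member the 3 genes most like it. One marker gene is not reported here.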

Additional observations from a re-analysis of the deposited data

Results flagged for a closer look

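Of 54 sets of 4 litters examined over the 9 genes, 3 held a litter that stood apart by Dixon's criterion, and chance alone gives about 1 in 20. *Opa1* in Nlrx1-/- vehicle cultures was highest in litter 2, at 6.97 log2 CPM. *Dnm1l* in stimulated Nlrx1-/- cultures was lowest in litter 3, at 7.09 log2 CPM. *Fis1* in stimulated WT cultures was lowest in litter 1, at 6.70 log2 CPM.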

How the results depend on the processing

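Leaving out litters, the members called between genotypes ranged from 0 to 4 in stimulated cultures and from 0 to 1 in vehicle, against 0 in both. In stimulated cultures DESeq2 called 3 and limma on the deposited values 1. A replicate block on the litter number, which the genotypes share only as a number (same-number r from -0.0892 to 0.180), called 2, and all-gene calls went from 426 up and 382 down to 1014 and 1192. With library sizes alone 4 members were called in the Nlrx1-/- response, against 8, with a shift of the median gene by -0.16 from TMM (an alternative chosen after seeing the data). Fits without a replicate block for litter lost *Pink1* in WT (-0.38, adjusted p = 0.105) and no other member in either response.

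All-gene calls between genotypes varied widely. In stimulated cultures they were 1229 up and 1209 down with DESeq2, 735 and 736 with limma on deposited values, 200 and 187 with limma-voom, 0 and 0 with stimulated libraries only, and 0 to 1499 up and 1 to 1834 down without a litter. In vehicle they were 0 and 0, against 455 and 280 with DESeq2, 117 and 36 without WT litter 1 and 590 and 720 without Nlrx1-/- litter 3. For the interaction they were 0 and 0, against 111 and 185 with DESeq2 and 125 and 192 without Nlrx1-/- litter 3.

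Signs that turned belonged to values near 0, the cause of which was not tested. The *Opa1* WT response was 0.006 with limma on deposited values, 0.0028 without the count filter and from -0.0283 to 0.028 with each litter left out in turn, and its Nlrx1-/- response was -0.12 with library sizes alone. With each litter left out in turn, the *Bnip3* interaction ran from -0.0316 to 0.119 (negative without WT litter 1 or Nlrx1-/- litter 2), and that of *Bnip3l* from -0.1001 to 0.0214 (positive without Nlrx1-/- litter 4). On log2(TPM + 1) all mean responses lay lower, that of *Opa1* at -0.21 in WT and -0.12 in Nlrx1-/- cells. The 95% interval of the *Pink1* difference in vehicle ran from -0.66 to 0.08. It comes from the fit without litter terms, which took both cultures of a litter as independent although there were 4 litters a genotype.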
